A study of Mus musculus with 4 samples.

Results

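H3K27ac, the acetylated histone H3 residue found at active promoters and enhancers, was examined at 8 genes of leukocyte adhesion molecules, out of 21887 protein-coding genes in the GRCm38 gene table. The 8 genes were *Sele*, *Selp*, *Icam1*, *Icam2*, *Vcam1*, *Madcam1*, *Aoc3*, and *Mcam*, and they were taken by name. For each gene, the H3K27ac peaks in the gene body or within 10 kb of it were read from the peak list of each library. A peak within 1 kb of either end of the gene was called a gene-end peak, any other peak in the window was called distal, and a peak was called shared where peaks of both libraries overlapped by at least 1 bp.

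ChIP-Seq was performed on chromatin of mouse liver sinusoidal endothelial cells (LSECs), the fenestrated cells that line the blood channels of the liver. The 2 H3K27ac libraries, replicates 2 and 3, form 1 group, so that no condition was compared, and the 2 input libraries of the same numbers were not analysed here on their own. The labels give the cell type and the antibody but no genotype, strain, age, or treatment, and they do not say whether the libraries came from separate mice. The study's methods name mice with a *Col4a1* fl/wt allele, with or without *Cdh5* CreERT2, and mice carrying *dCas9-KRAB* together with *Cdh5* CreERT2, a Cre driven in endothelium, as sources of LSECs, but do not state which of them gave the ChIP-Seq chromatin. In these methods the cells were purified with beads against CD146 and kept briefly on collagen before harvest, and whether that culture applied to the ChIP-Seq cells is not stated. CD146 is the product of *Mcam*, so the cells were selected for the product of 1 of the 8 genes, and a mark at *Mcam* is no independent sign of cell identity.

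Leukocytes leave the blood in steps. Selectins on the endothelium catch passing leukocytes and let them roll, and members of the immunoglobulin superfamily such as ICAM-1 and VCAM-1 then bind leukocyte integrins and hold the cells fast. In the slow flow of liver sinusoids, adhesion is known to depend less on selectins than in other vessels, and vascular adhesion protein 1, the product of *Aoc3*, is one of the molecules studied there.

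H3K27ac peaks of both libraries lay in the windows of 6 of the 8 genes, and the other two, *Icam2* and *Aoc3*, had peaks of replicate 3 alone. Replicate 2 had 23 peaks in the 8 windows, 7 at gene ends and 16 distal, and replicate 3 had 37, 7 at gene ends and 30 distal. Of the replicate 2 peaks, 22 overlapped a replicate 3 peak (95.7%), and of the replicate 3 peaks, 20 overlapped a replicate 2 peak (54.1%). Merged across libraries, these peaks formed 20 shared regions, 5 at gene ends and 15 distal, with 17 regions of replicate 3 alone and 1 of replicate 2 alone. Summits of the 2 libraries within a shared region lay 1 to 169 bp apart, with a median of 48.5 bp.

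The lists differ in length across the whole genome, and this bears on every region found in a single library. Replicate 2 held 26975 peaks and replicate 3 held 64498, and a peak of the other library overlapped 99.2% and 37.7% of them. Median fold enrichment over background, a ratio given by the authors' peak caller, was 9.76 in replicate 2 and 8.89 in replicate 3. No read counts come with the lists, so the depth is unknown, no interval can be given for a fold enrichment, and values were compared within a list or set side by side. The part of list length in the regions of replicate 3 alone was not tested.

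**Figure D1:**
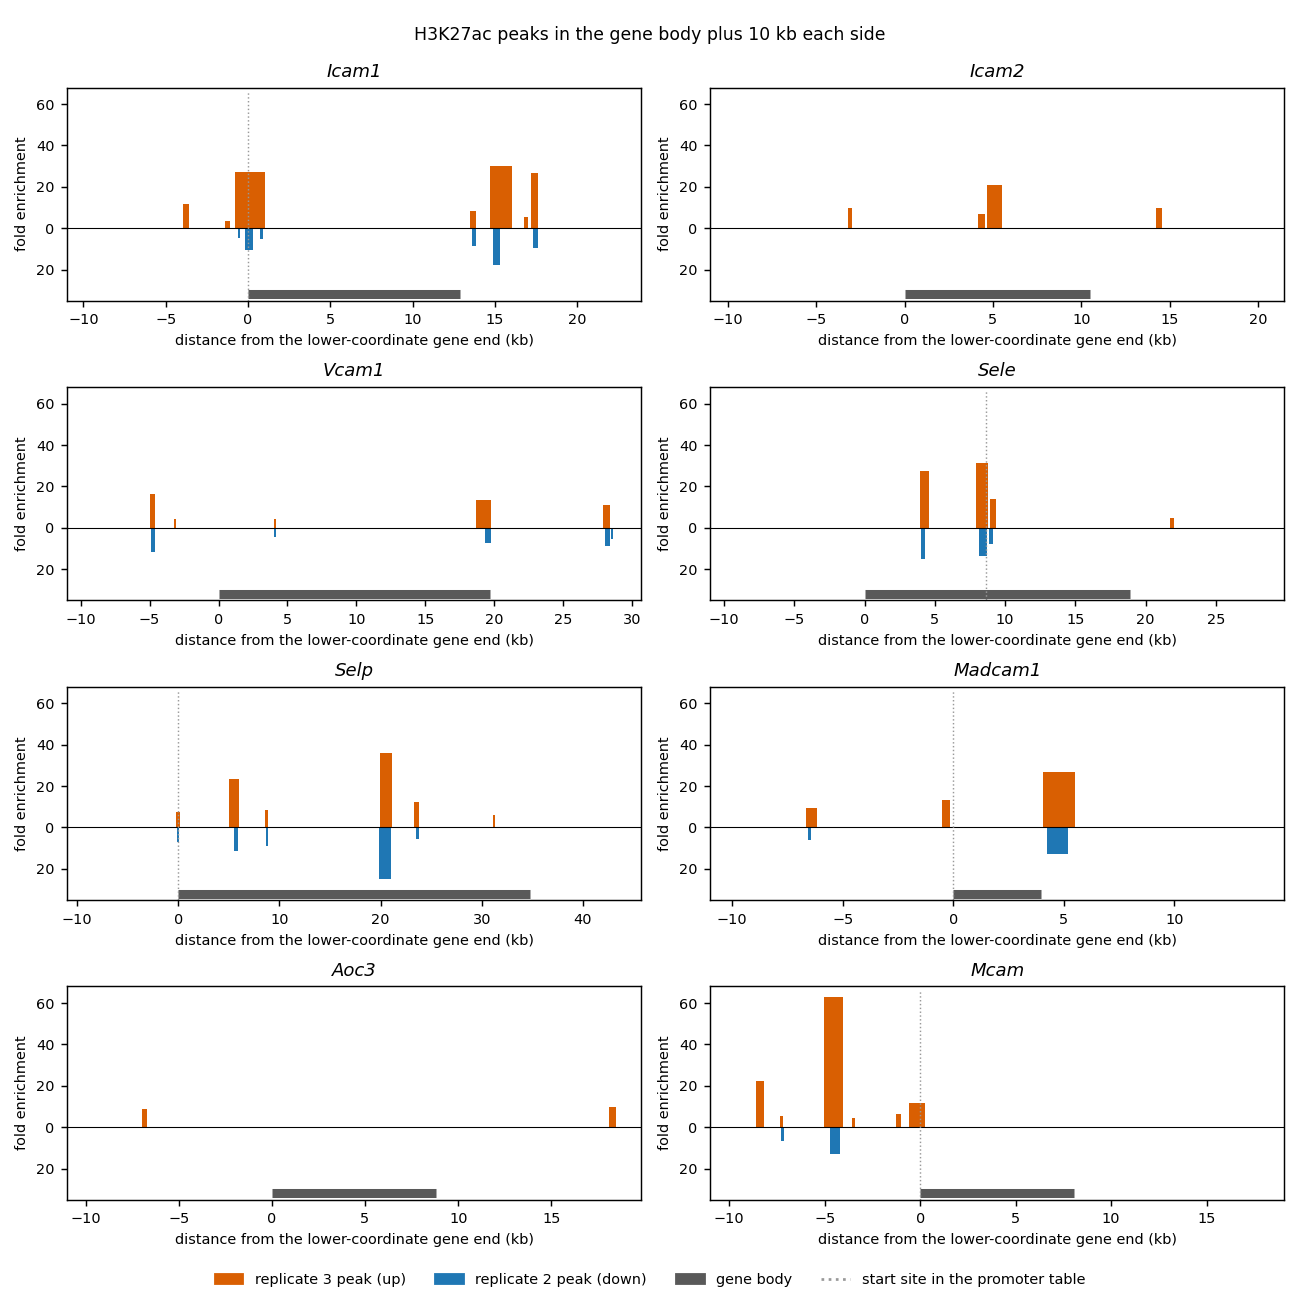
H3K27ac peaks in the window of each of the 8 genes, with the distance from the lower-coordinate gene end in kb on the x axis and fold enrichment on the y axis, replicate 3 drawn upward, replicate 2 downward, the gene body as a gray bar, and the promoter-table start as a dotted line. *Icam2* and *Aoc3* carry upward bars only, and the highest bar is the replicate 3 peak of 62.8 below the lower end of *Mcam*.

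A shared gene-end peak was present at 4 of the 8 genes, *Icam1*, *Vcam1*, *Selp*, and *Madcam1*, against 43.4% of all protein-coding genes. By library, 4 of 8 had a gene-end peak in replicate 2, where 43.4% of protein-coding genes did, and 5 of 8 in replicate 3, where 53.9% did, the fifth being *Mcam*. A shared distal peak was present at 6 of 8, all but *Icam2* and *Aoc3*, against 39% of protein-coding genes. No replicate 2 peak of any kind lay in the windows of 2 of 8, against 41.4% of protein-coding genes. These counts were close to the background for gene-end peaks and above it for distal peaks, and 8 genes are too few to call a share particular to them. Windows of the 8 genes were 23984 to 54763 bp long, with a median of 31679.5 bp, and those of all protein-coding genes had a median of 37169 bp.

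Strand and exons are not part of the gene table, so both ends of each gene were searched, and exons, introns, and untranslated regions were not told apart. A RefSeq promoter table of the same build gave the start site for 5 of the 8 genes. *Vcam1*, *Icam2*, and *Aoc3* are not among its entries. A shared peak lay within 1 kb of that start at 3 of these 5, *Sele*, *Selp*, and *Icam1*, against 45.6% of 17492 protein-coding genes in the table, and a replicate 3 peak did so at 5 of 5, against 54.4%. The windows printed here, 250 bases before to 50 after the start on the plus strand, are 2 that lie under peaks of both libraries (*Sele* and *Icam1*) and 2 that replicate 3 alone reached (*Madcam1* and *Mcam*). Capitals mark matches to the motifs searched on both strands, among them the NF-κB consensus. The letters searched for AP-1 were TGANTCA, and those for members of the ETS family were CNGGAAG. For GATA factors they were AGATAA, and for the box found before many start sites they were TATAAA.
Sele: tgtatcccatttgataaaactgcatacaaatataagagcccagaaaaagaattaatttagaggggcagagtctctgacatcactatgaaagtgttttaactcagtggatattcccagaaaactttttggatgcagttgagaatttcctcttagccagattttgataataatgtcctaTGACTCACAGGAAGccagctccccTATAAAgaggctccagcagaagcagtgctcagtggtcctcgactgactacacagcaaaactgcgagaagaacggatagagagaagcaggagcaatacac
Icam1: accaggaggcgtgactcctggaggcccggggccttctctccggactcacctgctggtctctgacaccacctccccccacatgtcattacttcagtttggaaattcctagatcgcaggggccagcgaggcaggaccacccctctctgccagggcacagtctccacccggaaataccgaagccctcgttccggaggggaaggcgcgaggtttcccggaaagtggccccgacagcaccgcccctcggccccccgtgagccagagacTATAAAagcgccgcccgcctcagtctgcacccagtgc
Madcam1: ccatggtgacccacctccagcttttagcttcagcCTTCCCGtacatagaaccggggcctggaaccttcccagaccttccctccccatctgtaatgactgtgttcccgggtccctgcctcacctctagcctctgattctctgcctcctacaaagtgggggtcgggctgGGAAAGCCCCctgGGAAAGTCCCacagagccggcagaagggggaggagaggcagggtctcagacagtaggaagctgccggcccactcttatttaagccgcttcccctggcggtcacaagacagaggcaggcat
Mcam: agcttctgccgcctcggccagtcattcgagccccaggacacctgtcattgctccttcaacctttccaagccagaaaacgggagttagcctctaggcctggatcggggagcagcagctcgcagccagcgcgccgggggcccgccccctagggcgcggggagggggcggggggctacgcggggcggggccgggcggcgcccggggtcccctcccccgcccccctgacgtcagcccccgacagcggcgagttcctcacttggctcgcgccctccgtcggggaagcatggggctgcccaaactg

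The *Sele* window, chr1:164047984-164048283, held an AP-1 match at -73 to -67 and an ETS match at -66 to -60, counted with the start base as 0, and a TATA match at -49 to -44. The AP-1 and ETS matches of *Sele* touch without overlapping. In the *Icam1* window, chr9:21015690-21015989, the only match was TATAAA at 13 to 18. The *Madcam1* window, chr10:79664309-79664608, held NF-κB matches on the minus strand at -83 to -74 and -70 to -61 and an ETS match on the minus strand at -216 to -210. In the *Mcam* window, chr9:44134408-44134707, no letters matched, but 72.7% of its bases were G or C and it held 29 CG pairs, against medians of 52.7% and 7 over the table. At *Selp*, whose window is not printed, an AP-1 match lay at -139 to -133. Among 32841 promoter windows, 7.81% held the AP-1 letters, 31.9% the ETS letters, 13.6% the TATA letters, 11.2% the GATA letters, and 8.46% the NF-κB consensus. A match describes letters and not a bound factor, and the absence of one says only that those letters are not in the window.

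*Sele* encodes E-selectin, which endothelium displays when activated by cytokines. Its gene body in the gene table is chr1:164039614-164058487, and the promoter-table start lies 8.62 kb inside it, so the peaks there counted as distal and *Sele* had no gene-end peak in either library. The region over that start, chr1:164047563-164048422, reached 13.6-fold enrichment in replicate 2 and 31.3-fold in replicate 3, and peaks of both libraries covered all 300 bases of the printed window. Immediately beyond it, chr1:164048440-164048941 had 7.93 and 14.0. Upstream, in the longer gene model, chr1:164043551-164044207 had 15.3 and 27.6. These 3 regions of *Sele* were therefore found in both libraries, and they were the only shared regions of its window. The remaining replicate 3 peak, with a fold enrichment of 4.72, lay 2.841 kb from the upper end of *Sele*.

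*Selp* encodes P-selectin, stored in endothelial granules and in platelets and brought to the surface within minutes of a stimulus. Its gene body, chr1:164115264-164150026, gave the longest of the 8 windows. At its start, chr1:164115017-164115441, the fold enrichment was 6.78 in replicate 2 and 7.38 in replicate 3, low in both lists, at the 23.1 and 40.5 percentiles, and with list lengths made equal this region was no longer shared. The higher regions of *Selp* lay inside the gene. The region chr1:164135153-164136371, 19.9 kb from the start, had 25.0 in replicate 2 and 36.0 in replicate 3, at the 90.1 and 86.3 percentiles of their lists, with a peak 1185 bp wide in each library. It was the strongest replicate 2 peak of all 8 windows. The region chr1:164120322-164121306 had 11.5 and 23.4, and chr1:164123852-164124181 had 8.81 and 8.47. Farther along, chr1:164138545-164139067, had 5.42 and 12.4. Only the weakest region of *Selp*, at 5.86, was found in replicate 3 alone. Platelets also express *Selp*, and 2 of 6 platelet genes, *Pf4* and *Itgb3*, had a shared gene-end peak, against 43.4% of all protein-coding genes. Fold enrichment in replicates 2 and 3 was 5.42 and 5.54 at *Pf4* and 7.03 and 37.0 at *Itgb3*. *Gp9* had a gene-end peak of replicate 3 alone, and *Itga2b*, *Gp1ba*, and *Ppbp* had no gene-end peak. Overlapping pairs of distal peaks of both libraries numbered 4 at *Itgb3*, 2 at *Itga2b*, 2 at *Gp1ba*, and 1 at *Ppbp*. *Pf4* and *Gp9* had no such pair, and 39% of all protein-coding genes had a shared distal peak. The part of platelets in the *Selp* peaks was not tested, and more cells of a type and more of the mark per cell cannot be told apart in such bulk chromatin.

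*Icam1* encodes ICAM-1, the ligand of the leukocyte β2 integrins, at chr9:21015940-21028814. Replicate 3 had a single peak 1846 bp wide over the start, chr9:21015142-21016987, with a fold enrichment of 27.1 at the 81.1 percentile of its list. Replicate 2 had 3 narrower peaks in the same region, with 4.58, 10.4, and 5.42, the middle of which, chr9:21015734-21016219, covered the start. The summits of the 10.4 and 27.1 peaks were 3 bp apart. The regions beyond the other end of *Icam1* run into its gene neighbors *Icam4*, an ICAM of the red cell lineage, and *Icam5*, which is known from neurons. The gene-end region chr9:21029405-21029786 had 8.81 in replicate 2 and 8.29 in replicate 3 and lay in *Icam4*. Between *Icam4* and *Icam5*, chr9:21030631-21031974 had 17.6 and 30.0, the highest values of the *Icam1* window in both libraries, and it lay 198 and 35 bp from *Icam4* in the 2 lists. In the body of *Icam5*, chr9:21033149-21033565 had 9.76 and 26.6. Peaks of replicate 3 alone had 11.8, 3.61, and 5.34. The peaks at the start were the only ones of both libraries nearer to an end of *Icam1* than to an end of another protein-coding gene.

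*Vcam1* encodes VCAM-1, which binds the α4 integrins of lymphocytes and monocytes, at chr3:116110020-116129688. At its upper-coordinate end, chr3:116128681-116129797, the fold enrichment was 7.46 in replicate 2 and 13.7 in replicate 3. Below the lower-coordinate end, 4.647 and 4.586 kb away, chr3:116105052-116105434 had 11.5 and 16.2, the highest values of the *Vcam1* window in both libraries, with summits 1 bp apart. This region lay nearer to an end of *Gm31384*, a gene outside the protein-coding set, at 2.707 and 2.679 kb. A region inside *Vcam1*, chr3:116114027-116114194, had 4.60 and 4.43, near the bottom of both lists. Beyond the upper end, chr3:116137914-116138438 had 8.79 and 11.1 and lay in the long noncoding RNA gene *5330425B07Rik*. The adjacent peak chr3:116138498-116138669, at 5.37, was the only peak of replicate 2 in the 8 windows without a replicate 3 peak. No other protein-coding gene lay nearer than 76.0 kb to any *Vcam1* peak, so its peaks, unlike those of *Icam1* and *Madcam1*, had no such neighbor in reach.

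*Icam2* encodes ICAM-2, a β2-integrin ligand that resting endothelium displays, at chr11:106377656-106388139. No replicate 2 peak lay in its window. Replicate 3 had 4 peaks, all distal, with 21.0 at chr11:106382291-106383176 and 6.69 at chr11:106381797-106382217 inside the gene, and 9.77 and 9.99 outside it. The peak of 21.0 was 886 bp wide and at the 76.0 percentile of its list, 4.635 kb from the nearest end. Of 2756 replicate 3 peaks within 10% of that fold enrichment, 82.8% had a replicate 2 peak, so a peak of this strength in replicate 3 alone was in the minority. For the peak of 9.77, which lay 81 bp from *Prr29*, that share was 22.4%, and for the peak of 9.99 it was 23.0%.

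*Madcam1* encodes the addressin MAdCAM-1, the ligand of the gut-homing integrin α4β7, at chr10:79664559-79668542. Its shared gene-end region, chr10:79668626-79670053, had 12.9 in replicate 2 and 26.98 in replicate 3, and it also covered an end of the adjoining gene *Tpgs1*. Neither peak covered the *Madcam1* end itself, which lay 262 and 84 bp away. At the start of *Madcam1*, replicate 3 alone had a peak, chr10:79664033-79664391, with a fold enrichment of 13.4, ending 168 bp before the start base and covering 83 of the 300 bases of the printed window. The NF-κB matches of that window lie outside this peak. A shared distal region, chr10:79657888-79658397, had 6.10 and 9.44, and with list lengths made equal it was no longer shared. The gene-end call of *Madcam1* thus rested on a region nearer to *Tpgs1* than to *Madcam1*, at the end of *Madcam1* away from its start.

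*Aoc3*, the amine oxidase gene of vascular adhesion protein 1, lies at chr11:101330606-101339430 and had the fewest peaks of the 8 genes. Replicate 2 had none in its window, and replicate 3 had 2 distal peaks. The first, chr11:101323623-101323912, had a fold enrichment of 8.79 and overlapped an end of *Aoc2*, the neighboring amine oxidase gene. The second, chr11:101348718-101349090, had 9.56 and lay 9.288 kb from the end of *Aoc3*. No peak of either library lay in the gene body of *Aoc3*. Of replicate 3 peaks of like strength, 16.3% and 20.4% had a replicate 2 peak, so replicate 3 peaks of that strength seldom had a partner.

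*Mcam* encodes CD146, an immunoglobulin superfamily protein of endothelial junctions, at chr9:44134658-44142727, and had its strongest peaks before the start. The region chr9:44129602-44130608, 4.214 and 4.050 kb from the start, had 12.9 in replicate 2 and 62.8 in replicate 3, at the 64.1 and 94.6 percentiles. It held the strongest replicate 3 peak of the 8 windows and lay in *Gm10687*, a long noncoding RNA gene. The 2 libraries thus ranked this region further apart than the strongest *Selp* region. A weaker shared region, chr9:44127322-44127535, had 6.78 and 5.49. The start of *Mcam* itself carried a peak of replicate 3 alone, chr9:44134046-44134915, with a fold enrichment of 11.9, and 33.7% of 4593 replicate 3 peaks within 10% of that strength had a replicate 2 peak. Another peak of replicate 3 alone, chr9:44126081-44126502, reached 22.5, and of 2571 such peaks 87.1% had a replicate 2 partner. This peak and the *Icam2* peak of 21.0 were the strongest without a replicate 2 partner.

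**Figure D2:**
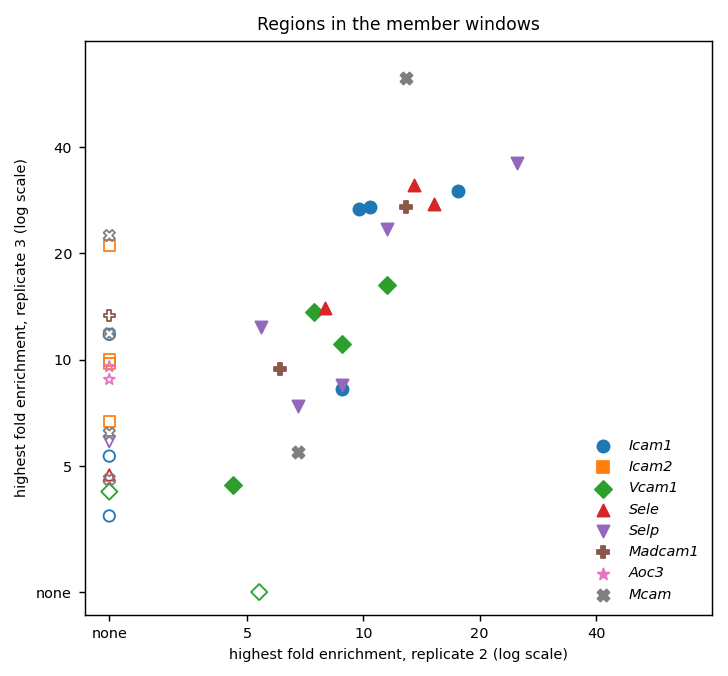
Highest fold enrichment of each region in the 8 windows, replicate 2 on the x axis and replicate 3 on the y axis, both log scales, with open symbols at "none" for regions of 1 library. The 20 shared regions run from the *Vcam1* point of 4.60 and 4.43 to the *Selp* point of 25.0 and 36.0, with the *Mcam* point of 12.9 and 62.8 above them, and 17 regions line up at no replicate 2 peak with replicate 3 values from 3.61 to 22.5.

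Across the windows, shared regions had a median replicate 3 fold enrichment of 15.1, with a range of 4.43 to 62.8, and regions of replicate 3 alone had a median of 8.79, with a range of 3.61 to 22.5. The ranges overlapped, and the weaker peaks were the ones more often without a partner. The strongest peak of each window in replicate 2 was 25.0 for *Selp*, 17.6 for *Icam1*, 15.3 for *Sele*, 12.9 for both *Madcam1* and *Mcam*, and 11.5 for *Vcam1*. In replicate 3 it was 62.8 for *Mcam*, 36.0 for *Selp*, 31.3 for *Sele*, 30.0 for *Icam1*, 26.98 for *Madcam1*, 21.0 for *Icam2*, 16.2 for *Vcam1*, and 9.56 for *Aoc3*. *Selp* stood above *Sele*, *Icam1*, *Madcam1*, and *Vcam1* in both libraries, and those last 2 kept their order. *Sele* and *Icam1* changed places between libraries, as did *Mcam* and the genes around it, so their order was not settled by these libraries.

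Gene-end peaks of the 8 genes were modest in strength. The highest gene-end fold enrichment in replicate 2 was 12.9 for *Madcam1*, 10.4 for *Icam1*, 7.46 for *Vcam1*, and 6.78 for *Selp*, all below 16.3, the median of protein-coding genes with a gene-end peak. In replicate 3 it was 27.1 for *Icam1*, 26.98 for *Madcam1*, 13.7 for *Vcam1*, 11.9 for *Mcam*, and 7.38 for *Selp*, all below the corresponding median of 38.7. The bases covered by peaks in the window ranked higher. *Selp* had 2191 covered bases in replicate 2 and 3636 in replicate 3, at the 95.7 and 87.9 percentiles of protein-coding genes, and *Icam1* had 1782 and 4853, at the 92.9 and 93.1 percentiles. Of these bases of *Icam1*, 996 in replicate 2 and 2306 in replicate 3 were in the peaks at or between *Icam4* and *Icam5*. *Vcam1* was at the 88.3 and 73.7 percentiles, *Sele* at 82.5 and 72.4, *Madcam1* at 81.7 and 73.4, and *Mcam* at 66.5 and 81.1. *Icam2* and *Aoc3* had no covered base in replicate 2 and were at the 66.2 and 41.0 percentiles in replicate 3. The medians of all protein-coding genes were 340 and 1096 covered bases. A longer window can hold more covered bases. With the bases at *Icam4* and *Icam5* included, *Icam1* ranked first among the 8 genes by share of the window in both libraries. It had 5.42% and 14.8% covered, at the 96.1 and 97.1 percentiles of protein-coding genes. *Madcam1* followed in replicate 2 with 4.59% (9.58% in replicate 3), and *Mcam* followed in replicate 3 with 10.2% (2.38% in replicate 2). *Selp* had 4.001% and 6.64%, at the 92.1 and 81.8 percentiles, so its rank among the 8 genes was lower by share than by bases.

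**Figure D3:**
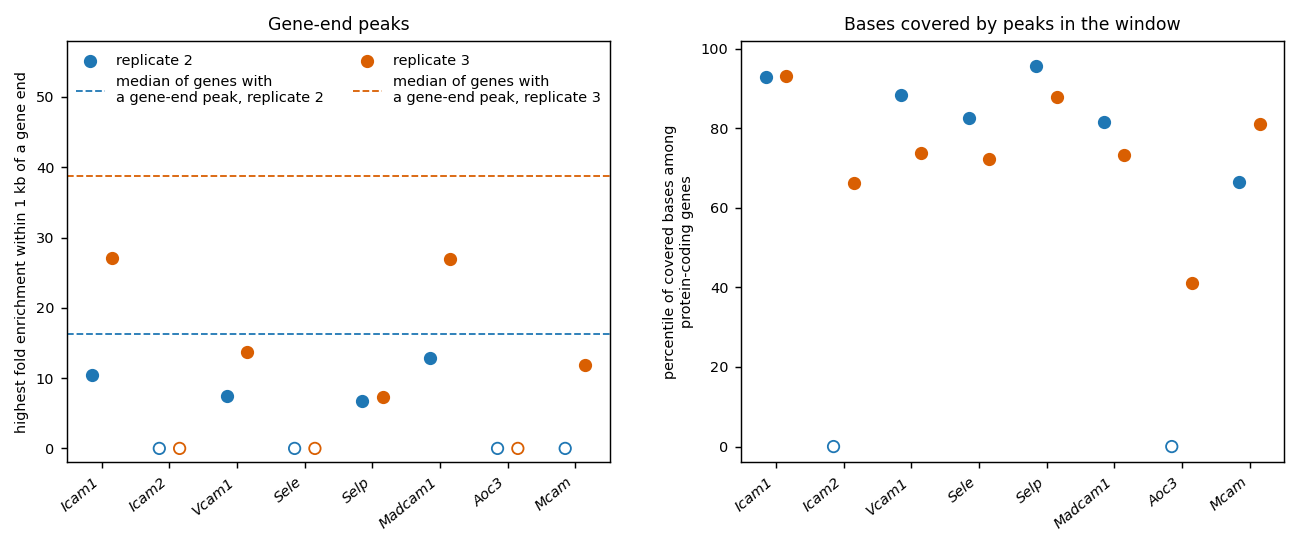
Left, highest fold enrichment within 1 kb of a gene end for each gene and library, with open circles for genes without such a peak and dashed lines at the medians of protein-coding genes that have one (16.3 and 38.7). Right, percentile of the bases covered by peaks in the gene window among all protein-coding genes, not scaled to window length, where *Icam1* and *Selp* lie highest and *Aoc3* lowest.

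Windows of 10 kb reach into other genes, and which gene a peak serves was not measured. In replicate 2, 4 of the 23 peaks, and in replicate 3, 9 of the 37, lay nearer to an end of another protein-coding gene than to an end of the gene examined. With noncoding genes counted as well, 13 and 21 did. The genes concerned included *Icam4*, *Icam5*, and *Mrpl4* at *Icam1*, *Tpgs1* at *Madcam1*, *Aoc2* at *Aoc3*, and *Prr29* at *Icam2*.

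Other genes of leukocyte adhesion and passage, listed as partners of the 8 genes on the vessel side, were counted for context. Of 20 such genes, 13 had a shared gene-end peak, against 43.4% of all protein-coding genes. A replicate 3 gene-end peak was present at 18, against 53.9%, and *Emcn* and *Glycam1* had no gene-end peak. The highest values in replicate 2 were 21.0 for *Podxl*, a sialomucin, 19.7 for *Esam*, a junctional adhesion protein, 17.6 for *Icam4* and *Icam5*, and 16.3 for *Cdh5*, the cadherin of endothelial junctions. In replicate 3 these genes had 56.7, 53.7, 30.0, and 36.1. *Cd99l2* followed with 14.9 and 41.4. The values of *Icam4* and *Icam5*, whose products are not known chiefly from endothelium, come from a single region of the *Icam1* window described above. Without these 2 genes, 11 of 18 had a shared gene-end peak and 16 of 18 a replicate 3 gene-end peak. Of 12 genes of leukocyte counter-receptors, 1 had a shared gene-end peak and 5 a replicate 3 gene-end peak. The shares of all protein-coding genes were 43.4% and 53.9%. The shared peak was at *Itgb1*, with 23.7 in replicate 2 and 35.6 in replicate 3. *Itgb1* encodes the β1 integrin, which endothelial and many other cells also express. Peaks of replicate 3 alone lay at the ends of *Itgax*, *Itgb2*, and *Itgb7*, among others, and 7 genes, including *Itgal*, *Itgam*, *Itga4*, and *Selplg*, had none.

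Among the 32 genes of these 2 lists, the nearest in pattern to each gene with a shared gene-end peak was found by the distance over 4 values, the log2(1 + value) of the highest gene-end fold enrichment and of covered bases in each of the 2 libraries. Nearest to *Icam1* was *F11r*, at a distance of 0.76, and nearest to *Madcam1* was *Icam4*, at 0.47. *Cxcl16* was nearest to both *Vcam1* and *Selp*, at 0.67 and 0.80.

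Defining genes of cell types were checked in the same way. Of 10 LSEC genes, 8 had a shared gene-end peak, and *Stab2* and *Clec4g* had a gene-end peak of replicate 3 alone. None of 6 hepatocyte, 6 hepatic stellate cell, 6 Kupffer cell, or 4 high endothelial venule genes had a shared one, and the 6 Kupffer cell genes had no gene-end peak in either library. Of 6 lymphocyte genes 1 did (*Cd79a*), of 6 pericyte and smooth muscle genes 1 (*Myh11*), and of 6 adipocyte genes 1 (*Fabp4*). Of 5 lymphatic genes 2 did, *Prox1* and *Lyve1*, the latter also an LSEC gene. Over all protein-coding genes the share was 43.4%. Of the hepatocyte, stellate cell, and high endothelial venule genes, *Apoa1* (11.4), *Hgf* (11.1), and *Fut7* (8.57) had gene-end peaks of replicate 3 alone. Shared distal peaks lay in the windows of *Alb*, *Pdgfra*, *Csf1r*, *Ccl21a*, and *Fut7*, and 39% of all protein-coding genes had one. The *Cd79a* call was lost with summits and without peaks nearer to another protein-coding gene. The *Myh11* call was lost at a q-value of 1e-05. Under 50% reciprocal overlap both were lost, but the other lists and the background fell as well. LSEC genes with a shared gene-end peak went from 8 to 5, lymphatic genes from 2 to 1, and platelet genes from 2 to 1. The share of all protein-coding genes went to 22.0%. The adipocyte count stayed at 1 under each alternative run on the lists with both libraries. Pericytes and smooth muscle express *Mcam* and *Aoc3*. Replicate 3 had gene-end peaks at 4 of their 6 genes, against 53.9% of all protein-coding genes. The fold enrichment was 14.7 at *Myh11*, 7.62 at *Cspg4*, 7.16 at *Tagln*, and 5.61 at *Acta2*. The part of these cells in the *Mcam* and *Aoc3* peaks of replicate 3 was not tested.

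**Figure D4:**
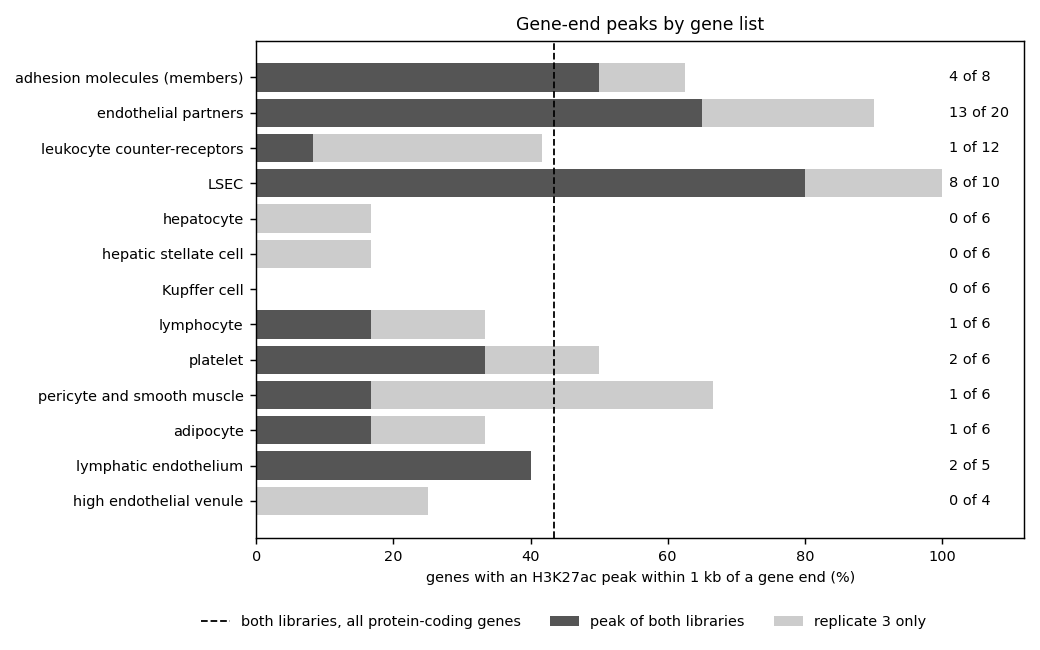
Share of each gene list with an H3K27ac peak within 1 kb of a gene end, in percent on the x axis, dark for a peak of both libraries and light for replicate 3 alone, with counts at the right and a dashed line at the 43.4% of all protein-coding genes. The 8 adhesion genes reach 4 of 8, between 13 of 20 endothelial partners (11 of 18 without *Icam4* and *Icam5*) and 1 of 12 leukocyte counter-receptors.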

How the data were processed

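H3K27ac peaks of mouse LSECs came from the deposited lists of replicates 2 and 3, 1 list for each library, in narrow-peak layout with 10 columns. The authors called peaks in each library by itself, without pooling, and whether the inputs served as controls is not stated. The fold enrichment of each peak is the ratio to background as deposited by the authors, and the −log10 p- and q-values are likewise those the authors deposited, with no q-value above 0.01. The score column was not used. Results for 1 gene are not reported here. The submitters' processing notes name cutadapt, BWA 0.7.17, Picard 1.67, MACS2 2.0.10, bedtools 2.27.1, and the build mm10, without their settings. The labels describe sonication and a ligation kit, whereas the paper describes tagmentation. More reads or stronger enrichment can lengthen a list, raise its counts, and lower the share of its peaks with a partner.

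Peaks were assigned to genes of the RefSeq gene table of GRCm38.p6, which is mm10, with positions counted from 1. Gene names were matched by symbol, and all 8 were found. Promoter windows of the same build came from RefSeq. Percentiles are ranks within a list or, for genes, among protein-coding genes, where a gene without a gene-end peak counted as 0. With 2 libraries of 1 condition, no test was run, and the labels do not say that the libraries are separate animals. The text names the 8 genes, genes nearer to their peaks, and from each list of adhesion genes up to 6 with the highest gene-end fold enrichment in replicate 2 plus those without one. The 8 genes and all lists were chosen with earlier results of these data known. Alternatives were a q-value of 1e-05, equal list lengths, 50% reciprocal overlap, other windows, summits, peaks nearest to the gene alone, each library alone, and 1 mismatch in the NF-κB consensus. Overlap counting was checked on simulated lists. Python 3.11.15, numpy 2.4.6, pandas 2.3.3, and matplotlib 3.10.9 were used.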

Additional observations from a re-analysis of the deposited data

How the results depend on the processing

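Of the recalculations of 30 values, 138 stayed within the spread allowed (1.5 times for a count) and 61 moved. Counts, shares, and percentiles have no sign, so none could change direction. Against the background, the gene-end count went from above it (4 of 8, 43.4%) to below it with equal list lengths (3 of 8, 42.3%). It was also below without peaks nearer to another protein-coding gene (3 of 8, 41.6%). *Icam1* kept a shared gene-end peak under each alternative run, and *Vcam1*, *Sele*, and *Selp* a shared distal peak. Under 50% reciprocal overlap, 2 genes kept a shared gene-end peak (*Icam1* and *Madcam1*), 6 endothelial partners did, and the background shares were 22.0% for gene ends and 25.0% for distal peaks. With equal list lengths, replicate 3 had 19 peaks in the windows, *Selp* lost its shared gene-end call (3 genes left), and *Madcam1* its shared distal one (5 left). With 50 kb each side, the libraries had 40 and 81 peaks and the distal background was 66.7%. With the gene body and its ends alone, they had 15 and 18, 3 genes kept a shared distal peak, and that background was 19.4%. Without peaks nearer to another protein-coding gene it was 23.0%, *Madcam1* lost its gene-end call, and *Icam1* its distal one. At 2.5 kb from a gene end, 2 counter-receptors had a shared peak. Leaving out 1 library at a time gave a distal background of 40.1% to 60.6% (39.0% with both) and 1 to 5 counter-receptors, both higher without replicate 2. With 1 mismatch the NF-κB consensus matched 5 promoters in place of 1, as it did 63.2% of all. The promoter-table start in place of gene ends, an alternative chosen after seeing the data, gave 4 genes, with *Sele* gained and *Madcam1* lost. Of the cell type lists, 19 of 80 recalculations moved, and of the percentiles, 25 of 38. The share of the window covered and the list without *Icam4* and *Icam5* were also added after seeing the data. No paired analysis was possible because the only samples that share numbers with the H3K27ac libraries are the inputs, which have no peak list here. Depth is unknown, so for regions of replicate 3 alone, absence from replicate 2 and detection limits of the shorter list cannot be told apart.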

Other observations

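Farther out, 10 to 50 kb from the gene bodies, peaks of both libraries were strongest at neighbors of *Madcam1* and *Mcam*. At *Bsg*, which encodes the glycoprotein basigin, the fold enrichment was 25.5 in replicate 2 and 126 in replicate 3, and at *Cdc34*, a ubiquitin-conjugating enzyme gene, it was 41.5 and 107. Next to *Rnf26*, on the lower side of *Mcam*, it was 22.0 and 98.3. All of these were higher than any peak in the window of the adhesion gene they flank in the same library.

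Around *Icam2* and *Vcam1*, this outer zone held 4 and 3 peaks of replicate 3 and 0 of them had a replicate 2 peak. The highest fold enrichment among these replicate 3 peaks was 7.38 around *Icam2* and 11.7 around *Vcam1*. Over the whole list, 37.7% of replicate 3 peaks had a replicate 2 peak, but the share was lower among weaker peaks. It was 5.49% of replicate 3 peaks within 10% of a fold enrichment of 6.19. Within 10% of 6.69 it was 6.72%, and within 10% of 11.8 it was 33.7%. Around *Aoc3*, 2 of 4 had a replicate 2 peak, and these overlapped an end of *Psme3* (8.81 and 24.6) and of *Becn1* (10.5 and 33.3).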
